A study of Homo sapiens with 16 samples.

Results

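A set of tubulin and stathmin genes was followed in neuroblastoma cells depleted of TPX2, a protein of the mitotic spindle. They were the rows of the deposited count table whose Ensembl identifier maps to the symbols TUBA1A, TUBA1B, TUBA1C, TUBB, TUBB2A, TUBB2B, TUBB3, TUBB4B, TUBG1 or STMN1, which gave 10 genes of 58787 rows, 1 row per symbol. 8 of the 10 held enough counts to be tested, among 14193 tested genes in all. TUBA1C and TUBB3 did not pass that filter and are described by their counts. TUBA1B, TUBB, TUBB4B and TUBG1 were lower under the siRNA si47 than in the control cells, to between 72.1% and 81.5% of the control mean. TUBA1A, TUBB2A, TUBB2B and STMN1 passed no test against the control, and no tested gene of the set was called higher.

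Microtubules are hollow polymers of alpha-tubulin and beta-tubulin dimers, and each of these proteins is encoded by several genes, the isotypes, that are used in different proportions by dividing cells and by neurons. Gamma-tubulin sits in a ring complex from which new microtubules grow, while stathmin, the product of STMN1, binds free dimers and promotes disassembly. Cells also adjust tubulin mRNA to the pool of unpolymerised tubulin: when free dimers accumulate, the protein TTC5 recognises the first residues of alpha- or beta-tubulin as they leave the ribosome, and the mRNA is degraded. TPX2 helps to nucleate spindle microtubules near chromosomes and activates the kinase AURKA. In neuroblastoma, a childhood tumour of the sympathetic nervous system, some tubulin isotypes are also used as markers of the neuronal lineage.

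The cells were IMR32, an established human neuroblastoma line with MYCN amplification, which the labels describe as neuroblasts, so each value comes from 1 cell line. One group received the non-targeting siRNA siNTC and each of 3 others received 1 siRNA against TPX2, named si45, si46 or si47. The table's headers place all libraries at 48 h. Each group had 4 replicates, described in the design as biological, for 16 libraries in all. All comparisons with the control used the same 4 siNTC libraries, so the 3 siRNAs are not independent of each other in that respect.

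The libraries were read from the 3′ end of transcripts (QuantSeq), so 1 read stands for 1 transcript end, and levels in CPM (counts scaled to library sizes by TMM) can be set side by side between genes without division by length. Totals ran from 5318159 to 7864343 counts per library. TPX2 had 296 to 358 CPM in the controls and 62 to 121 CPM in the 12 knockdown libraries, of which si45 replicate 3 was the highest. All 10 adrenergic neuroblastoma markers had counts, with a summed level of 5616 to 6126 CPM in the control. Under si45 the sum was 5777 to 6713 CPM, under si46 it was 6128 to 7141, and under si47 it was 6274 to 7346. Their part in the results for the tubulin genes was not tested. TH, the first enzyme of catecholamine synthesis, was low at 1.49 to 5.01 CPM. The labels give the tissue as brain, and astrocyte and oligodendrocyte markers summed to at most 1.01 CPM. Markers of blood, epithelium and endothelium summed to at most 2.56 CPM in any library, and mesenchymal markers to at most 82.6. In bulk RNA a lower level may mean fewer cells that express a gene or less RNA per cell, and these cannot be told apart here.

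The set as a whole took 1.05% to 1.26% of all counts in the siNTC libraries. That share was 0.962% to 1.08% in si45, 0.937% to 1.02% in si46 and 0.881% to 1.03% in si47. In siNTC, TUBB, the main beta-tubulin of dividing cells, was the 7th most abundant gene of the whole table at 4643 ± 477 CPM (SD, n = 4). TUBA1B, the corresponding alpha-tubulin, followed at 2527 ± 219 CPM and STMN1 at 2062 ± 162 CPM. The control ranges of these last 2 genes overlapped, since the lowest TUBA1B library had 2273 CPM and the highest STMN1 library 2304. Next came TUBA1A at 725 ± 52.1 CPM and TUBB2B at 677 ± 129 CPM, both known for high expression in developing neurons, and their ranges overlapped as well. TUBB4B (462 ± 45.6 CPM), TUBG1 (230 ± 29.2 CPM) and TUBB2A (59.5 ± 4.09 CPM) were each separated from their neighbours in this order by more than the spread of the 4 libraries. The order of the 8 group means was the same in si45 and si47, and in si46 TUBB2B (743 CPM) stood above TUBA1A (722 CPM), within overlapping ranges.

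TUBB3, the class III beta-tubulin widely used to mark neurons, had 25 counts in all 16 libraries together and 0 to 6 in any one of them. TUBA1C, an alpha-tubulin of proliferating cells, had 41 counts in all and 0 to 5 per library. Summed over the 4 libraries of a group, TUBA1C had 8 counts in the control and 5, 17 and 11 under si45, si46 and si47, and TUBB3 had 8, 7, 8 and 2. These counts were too few to be tested. For TUBB3, 98.8% of the 75-base windows in the last 500 bases of its transcript were also found in another GENCODE v29 transcript, nearly all of them in AC092143.1, a read-through gene on the same strand (421 of 426 windows). AC092143.1 itself was listed with 0 counts. For TUBA1C none of the 426 windows was shared. The gene overlaps TUBA1A on the opposite strand, at the 5′ ends of both genes and away from the 3′ ends that were read. How the authors treated reads that match more than 1 gene is not given in the sources used here, so the part of such reads in these low counts was not tested.

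The same measure bears on how well the other members can be told apart. The last 500 bases of TUBB, TUBB2B and STMN1 shared no window with another gene. Sharing was 9.39% for TUBG1 (with TUBG2), 15.96% for TUBA1A and 16.2% for TUBB4B. It reached 41.1% for TUBA1B, whose windows recur in TUBA1A, TUBA1C and TUBAP2, and 53.5% for TUBB2A. Values of TUBA1B and TUBB2A are therefore uncertain to the extent that reads were split or dropped between copies. On the opposite strand, TUBG1 overlaps RETREG3 (5446 counts) and TUBB2B overlaps PSMG4 (3865 counts), and whether the counting used strand is not given in the sources used here.

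**Figure D1:**
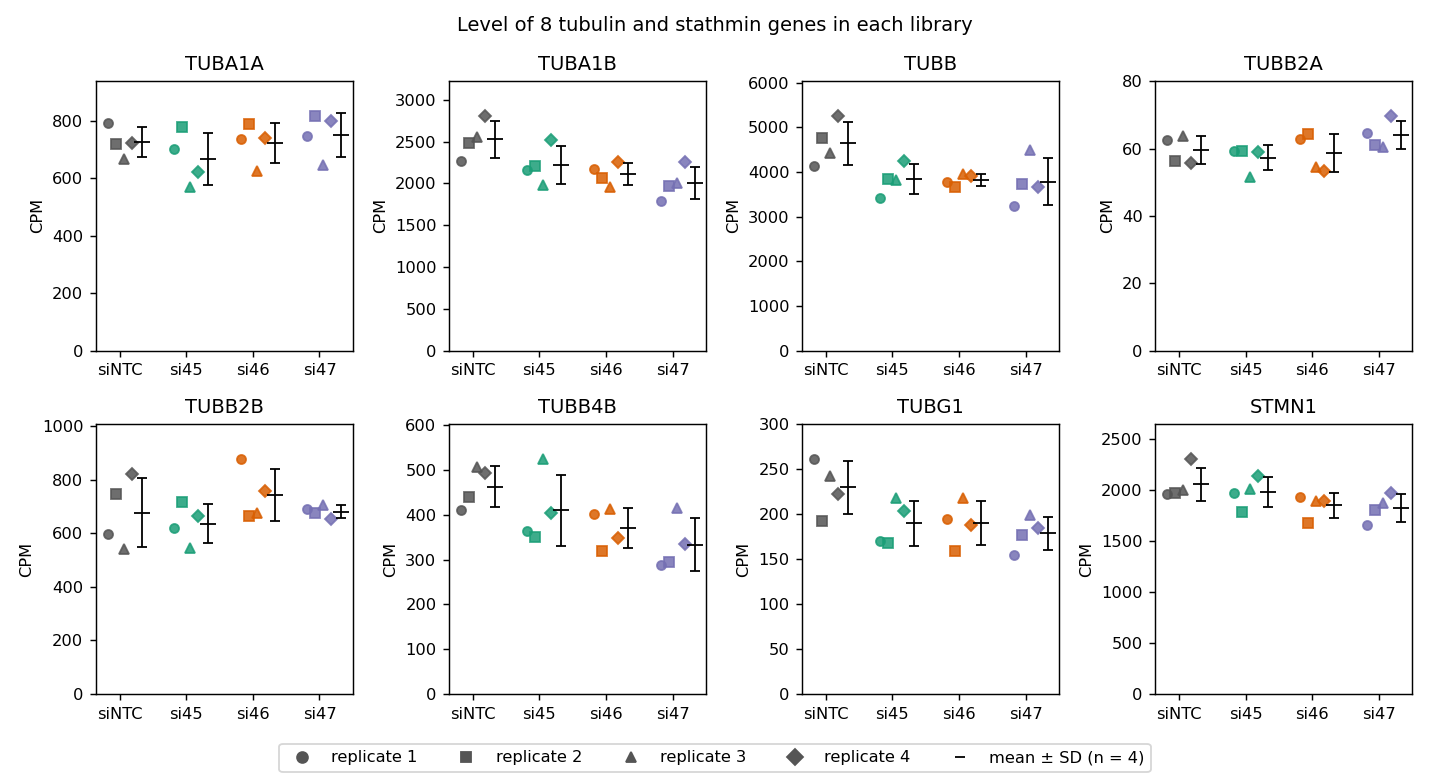
Level of the 8 tested genes in each library, in CPM on an axis that starts at 0, by siRNA group, with replicates 1 to 4 as different symbols and the mean ± SD (n = 4) beside each group. The means of TUBA1B, TUBB, TUBB4B, TUBG1 and STMN1 are lower in each knockdown group than in siNTC, with libraries that overlap the controls in some groups. Of these, all but STMN1 were called lower under si47, and none under si45 or si46 (edgeR). The knockdown means of TUBA1A, TUBB2A and TUBB2B lie on both sides of siNTC.

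The alpha-tubulins were examined first. All 3 genes lie on chromosome 12 in the GENCODE v29 annotation of GRCh38: TUBA1A (ENSG00000167552) at 49184796 to 49189324 and TUBA1B (ENSG00000123416) at 49127782 to 49131397 on the minus strand, and TUBA1C (ENSG00000167553) at 49188736 to 49274603 on the plus strand. TUBA1B had 2273, 2481, 2550 and 2804 CPM in siNTC replicates 1 to 4. It had 2156, 2205, 1980 and 2523 CPM in si45, and 2176, 2061, 1960 and 2251 CPM in si46. In si47 the values were 1794, 1964, 2009 and 2256 CPM. All 4 libraries of si46 and all 4 of si47 were below every control, and 11 of the 12 knockdown libraries were, the exception being si45 replicate 4. TUBA1B fell by 0.33 on the log2 scale under si47 (SE 0.0865, edgeR, Benjamini-Hochberg adjusted p = 0.0104), to 79.4% of the control mean. The values of -0.26 under si46 (adjusted p = 0.0986) and -0.19 under si45 (adjusted p = 0.384) did not pass the threshold of 0.05 in the same edgeR fit. Over the mean of the 3 siRNAs it fell by 0.26 (SE 0.0696, adjusted p = 0.0167, edgeR).

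TUBA1A, the alpha-tubulin associated with migrating and developing neurons, had 793, 717, 667 and 722 CPM in siNTC. The si45 libraries had 702, 776, 570 and 620 CPM, the si46 libraries 735, 789, 624 and 738, and the si47 libraries 745, 815, 645 and 799. Knockdown values lay on both sides of the controls, with 4 of 12 below the lowest control and 2 above the highest. The log2 fold change for the mean of the 3 siRNAs was -0.02 (95% interval -0.18 to 0.13, edgeR adjusted p = 0.899).

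Because the TTC5 system reads the first residues of alpha- and beta-tubulin, the start of the coding sequence that encodes them is shown for all members. The sequences are the first 4 codons of the annotated GENCODE v29 transcripts, 5′ to 3′ on the coding strand, with the codons after the start codon in capitals.
TUBA1A: atgCGTGAGTGC
TUBA1B: atgCGTGAGTGC
TUBA1C: atgCGTGAGTGC
TUBB: atgAGGGAAATC
TUBB4B: atgAGGGAAATC
TUBB2A: atgCGCGAGATC
TUBB2B: atgCGTGAGATC
TUBB3: atgAGGGAGATC
TUBG1: atgCCGAGGGAA
STMN1: atgGCTTCTTCT
TUBA1A, TUBA1B and TUBA1C carry the same 4 codons, and so do TUBB and TUBB4B. The codons of TUBB2A, TUBB2B and TUBB3 differ from those of TUBB in spelling only and encode the same residues, Met-Arg-Glu-Ile. These residues are thus the same in the beta-tubulins called lower under si47 (TUBB and TUBB4B) and in those not called (TUBB2A and TUBB2B). Differences between the beta-tubulin genes were not tested. TUBG1 and STMN1 are not known substrates of this system. Under si47 the 2 tested alpha-tubulins, with the same 4 codons, had a called decrease, for TUBA1B, and a log2 fold change of 0.05 (adjusted p = 0.804, edgeR) for TUBA1A. The difference between these 2 genes was not tested. TTC5 itself had a log2 fold change of 0.18 in the mean contrast (adjusted p = 0.574, edgeR). None of the 12 tested genes of the TTC5, SCAPER and CCR4-NOT list was called by edgeR in any comparison with siNTC, with 0 to 2 of them under an unadjusted p of 0.05. The median log2 fold change of that list was 0.03, -0.05, -0.06 and -0.04 for si45, si46, si47 and their mean, against 0.00 over all genes tested. These are mRNA levels, and the part of the TTC5 system in the tubulin values was not tested.

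Among the beta-tubulins, TUBB (ENSG00000196230, chromosome 6, 30720201 to 30725426, plus strand) had 4136, 4756, 4428 and 5250 CPM in siNTC. In si45 the values were 3423, 3855, 3832 and 4257 CPM, and in si46 3771, 3667, 3951 and 3922. The si47 libraries had 3242, 3734, 4498 and 3657 CPM. 10 of the 12 knockdown libraries were below every control, all 4 of si46 among them, and si45 replicate 4 and si47 replicate 3 were within the control range. TUBB fell by 0.29 under si47 on the log2 scale (SE 0.0905, edgeR adjusted p = 0.032) and by 0.28 over the mean of the 3 siRNAs (SE 0.0727, adjusted p = 0.0128). The group means were 82.8%, 82.4% and 81.5% of control for si45, si46 and si47, and the values for si45 (-0.27, adjusted p = 0.16) and si46 (-0.28, adjusted p = 0.087) did not pass in edgeR.

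TUBB4B (ENSG00000188229, chromosome 9, 137241213 to 137243707, plus strand), a beta-tubulin of most tissues and of cilia, had the lowest level relative to control of the 8 tested genes under si47. Its siNTC libraries had 410, 440, 507 and 494 CPM. The values were 363, 350, 524 and 404 CPM in si45, 401, 319, 413 and 349 in si46, and 289, 295, 416 and 334 in si47. 9 of 12 knockdown libraries were below every control, and si45 replicate 3, the library with the most residual TPX2, was above all of them. TUBB4B fell by 0.47 under si47 (SE 0.127, edgeR adjusted p = 0.0195), to 72.1% of the control mean. Its value over the mean of the 3 siRNAs, -0.32 (SE 0.101), did not pass in edgeR (adjusted p = 0.0579), and passed without si45 replicate 3 (-0.37, adjusted p = 0.00358). It also passed when replicate 3 of si46 (adjusted p = 0.0484) or of si47 (adjusted p = 0.00765) was left out. Replicate 3 had the highest TUBB4B in siNTC too (507 CPM), and without that library the value was -0.275 (adjusted p = 0.192, edgeR). Without siNTC replicate 1, 2 or 4 it did not pass either (adjusted p = 0.0605, 0.114 and 0.186, edgeR).

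TUBB2A (ENSG00000137267, chromosome 6, 3153669 to 3157526, minus strand) and TUBB2B (ENSG00000137285, chromosome 6, 3224261 to 3231730, minus strand) are neighbouring beta-tubulin genes with strong expression in brain. TUBB2B had 599, 745, 541 and 822 CPM in siNTC, a range that held nearly all of its knockdown values. It had 621, 716, 544 and 663 CPM in si45, 876, 663, 675 and 758 in si46, and 691, 674, 706 and 652 in si47. No knockdown library was below the lowest control, and 1, si46 replicate 1, was above the highest. Its log2 fold change for the mean of the 3 siRNAs was 0.02 (95% interval -0.16 to 0.19, edgeR adjusted p = 0.937). TUBB2A was between 51.7 and 69.6 CPM in the knockdown libraries and between 55.7 and 63.6 in the controls, with a log2 fold change of 0.01 (95% interval -0.16 to 0.18, edgeR adjusted p = 0.964). The direction of these near-zero values turned in some of the refits that leave out 1 library.

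TUBG1 (ENSG00000131462, chromosome 17, 42609676 to 42615234, plus strand) encodes the gamma-tubulin of the nucleating ring complex. Its level was 261, 193, 243 and 222 CPM in siNTC. In si45 it was 170, 168, 218 and 204 CPM, in si46 195, 159, 218 and 188, and in si47 155, 177, 199 and 185. The lowest control, siNTC replicate 2, was within the knockdown range, and 7 of the 12 knockdown libraries were below every control. TUBG1 fell by 0.36 under si47 (SE 0.106, edgeR adjusted p = 0.0252) and by 0.30 over the mean of the 3 siRNAs (SE 0.0847, adjusted p = 0.0241). In si45 and si46 the value was -0.27 for both, with adjusted p = 0.27 and 0.179 (edgeR).

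STMN1 (ENSG00000117632, chromosome 1, 25884181 to 25906991, minus strand) had 1966, 1971, 2007 and 2304 CPM in siNTC. It had 1972, 1790, 2014 and 2145 CPM in si45, 1935, 1675, 1900 and 1900 in si46, and 1655, 1807, 1872 and 1978 in si47. All 4 si46 libraries and 3 of 4 si47 libraries were below every control, the closest of them at 1935 against 1966 CPM. The log2 fold changes were -0.06 for si45, -0.15 for si46 and -0.17 for si47, with edgeR adjusted p of 0.858, 0.384 and 0.192. The mean contrast gave -0.13 (95% interval -0.26 to 0.001, adjusted p = 0.269, edgeR), an interval whose upper end is at the control level. For si47 alone the 95% interval was -0.333 to -0.013 (unadjusted p = 0.0416, edgeR). Of all tested genes, 23.3% had an unadjusted p under 0.05 in that comparison.

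**Figure D2:**
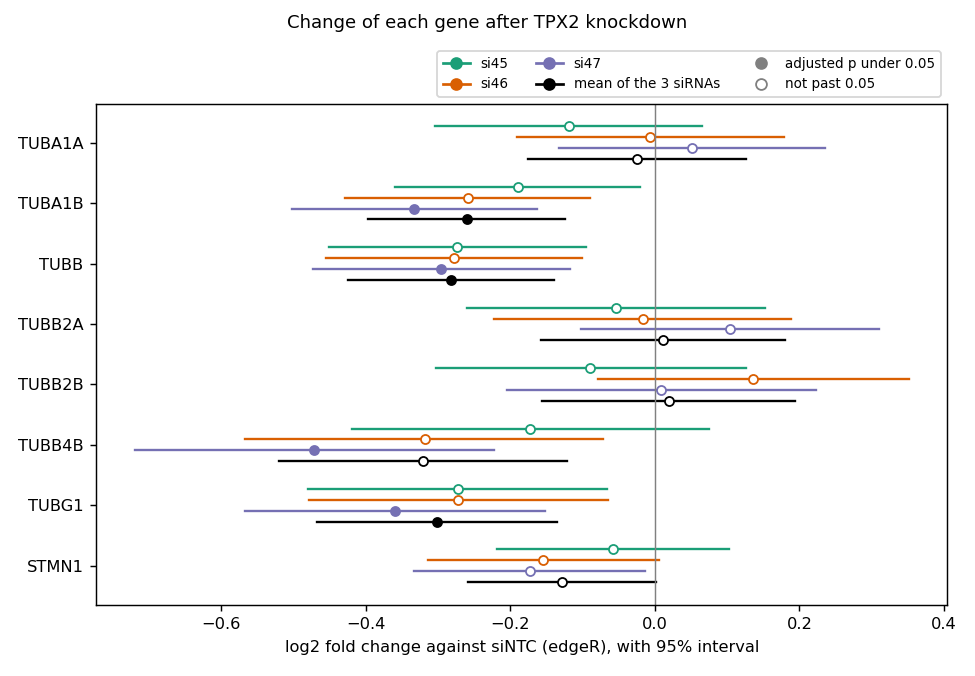
log2 fold change of the 8 tested genes against siNTC for si45, si46, si47 and their mean (edgeR), with 95% intervals and filled points where the adjusted p was under 0.05. The filled points are TUBA1B, TUBB, TUBB4B and TUBG1 for si47 and TUBA1B, TUBB and TUBG1 for the mean.

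Counted together, 4 of the 8 tested members were called lower under si47, where 4.83% of all tested genes were called lower, and 0 were called higher, where 4.91% of all genes were. In the mean contrast 3 members were called lower and 0 higher, against 3.53% and 3.61% of all tested genes. Under si45 edgeR called 0 members in either direction (0.324% of all genes were called lower and 1.01% higher), with TUBA1B, TUBB and TUBG1 under an unadjusted p of 0.05, as were 11.4% of all genes. Under si46 edgeR also called 0 (1.25% of all genes lower and 2.14% higher), with TUBA1B, TUBB, TUBB4B and TUBG1 under an unadjusted p of 0.05, as were 2124 of the 14193 genes. DESeq2 and limma-voom called 0 members under si45 and si46 as well. The main edgeR fit called 190 genes in all under si45 and 482 under si46. Without the filter on low counts edgeR called TUBB under si45, where 356 genes in all were called. It called TUBA1B, TUBB and TUBB4B under si46, where 690 were. With only the groups compared it called TUBB and TUBB4B under si46, where 631 were. With the replicate number as a block it called TUBB and TUBG1 under si45, where 577 genes in all were called. The block gave TUBA1B, TUBB, TUBB4B and TUBG1 under si46, where 1073 genes in all were called. The median log2 fold change over the 8 members was -0.15, -0.21, -0.23 and -0.19 for si45, si46, si47 and the mean, and 0.00 over all genes in each. By the count of genes with all 4 libraries below all 4 controls, which needs no model, there were 0 members for si45, 3 for si46 (TUBA1B, TUBB and STMN1) and 1 for si47 (TUBA1B), against 2.96%, 4.67% and 6.99% of all genes tested.

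Single libraries weighed on these calls. Under si47 the 4 called members became 2 without siNTC replicate 3 and 1 without siNTC replicate 4. The calls over all genes fell as well, from 1382 to 1120 and 1023. Of the knockdown libraries, leaving out si47 replicate 1 gave 0, si47 replicate 2 gave 1 and si47 replicate 4 gave 2. Without si47 replicate 1 the calls over all genes were 932. In the mean contrast the 3 called members became 1 without siNTC replicate 3, 0 without siNTC replicate 4, and 2 without siNTC replicate 1 or siNTC replicate 2. Over all genes the calls fell from 1014 to between 629 and 677 in these refits. All of the called members stayed lower than control in the refits. Without siNTC replicate 4, TUBB was at -0.22 (adjusted p = 0.119, edgeR) and TUBA1B at -0.21 (adjusted p = 0.126) in the mean contrast. siNTC replicate 4 had the highest TUBA1B, TUBB, TUBB2B and STMN1 of the controls and the largest share of counts in the set (1.26%).

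The 3 siRNAs were also compared with each other, which gave 24 tests over the 8 members. edgeR called 0 members in si46 against si45, si47 against si45 and si47 against si46, where 0.0282%, 0.169% and 0.0493% of all genes were called in either direction; DESeq2 and limma-voom called 0 too. At an unadjusted p under 0.05 there were TUBB2B in si46 against si45 (0.23, unadjusted p = 0.049, adjusted p = 1) and TUBB4B in si47 against si45 (-0.30, SE 0.127, unadjusted p = 0.0278, adjusted p = 0.392, edgeR). Deviations of the si45 and si47 libraries from their group means went together by replicate number. With that number as a block TUBB4B was lower in si47 than in si45 (-0.30, SE 0.0742, edgeR adjusted p = 0.0142). The block called 398 genes in all in this comparison, against 24 without it. For TUBB the difference between si47 and si45 was -0.02 (95% interval -0.20 to 0.16), and for TUBG1 it was -0.09 (95% interval -0.29 to 0.12).

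The composition of the tubulin mRNA pool was then described as the share of each isotype in the summed counts of the alpha or the beta members of the set. Tubulin genes outside the set, such as TUBB6 (262 CPM in siNTC) and TUBA4A (25.3 CPM), were left out of these sums. Shares within such a sum add up to a whole and were not tested. The summed alpha-tubulin level was 3252 ± 195 CPM in the control (SD, n = 4), and 2883 ± 251, 2834 ± 175 and 2757 ± 222 under si45, si46 and si47. For the summed beta-tubulins it was 5842 ± 613, 4946 ± 375, 5001 ± 191 and 4861 ± 587 CPM in the same order. The ratio of alpha to beta counts was 0.559 ± 0.0302 in siNTC and 0.584 ± 0.052, 0.568 ± 0.0425 and 0.573 ± 0.076 under the 3 siRNAs, so it differed by less than the spread between replicates.

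Within the beta members of the set TUBB held 79.4%, 79.3%, 79.9% and 79.3% of the counts in the 4 controls. It held 76.6%, 77.4%, 77.4% and 79.1% in si45, 73.8%, 77.8%, 77.6% and 77.2% in si46, and 75.6%, 78.4%, 79.2% and 77.6% in si47. All 12 knockdown libraries were thus below the lowest control, si47 replicate 3 and si45 replicate 4 only slightly. The share of TUBB2B was 11.5% ± 1.25 in the control and 12.9% ± 1.54, 14.8% ± 1.68 and 14.1% ± 1.52 under si45, si46 and si47, with all si46 and si47 libraries above the controls. TUBB4B held 7.95% ± 0.828 in siNTC and 6.84% ± 0.49 in si47, where each library was below the lowest control, by as little as 7.32% against 7.33%.

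Within the alpha members of the set TUBA1B held 77.6% ± 2.48 of the counts in the control and 76.8% ± 2.75, 74.5% ± 1.55 and 72.7% ± 2.48 under si45, si46 and si47. TUBA1A made up nearly all of the rest, from 22.4% ± 2.49 in siNTC to 27.3% ± 2.49 in si47. 3 of 4 si47 libraries had a lower TUBA1B share than any control. The shares of TUBA1C and TUBB3 were at most 0.0311% and 0.0208% in any library.

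**Figure D3:**
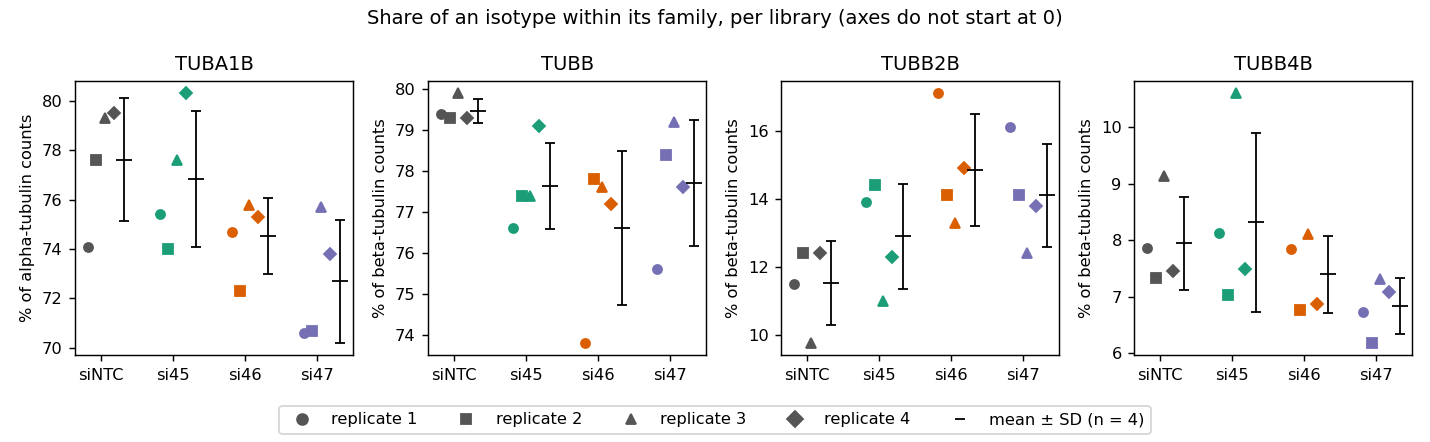
Share of TUBA1B in the summed counts of the alpha-tubulins of the set and of TUBB, TUBB2B and TUBB4B in those of its beta-tubulins, in percent per library. The mean ± SD (n = 4) is beside each group, and the axes do not start at 0. The TUBB share lies between 79.3% and 79.9% in siNTC and between 73.8% and 79.2% in the knockdown libraries.

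How the members varied together was described by Pearson r between log2 CPM values over the 16 libraries, for 36 pairs that include TPX2. The points share their libraries and the group differences, so r was also taken on deviations from the group means, and no p is given. TUBB4B and TUBG1 had r = 0.79 (0.69 on deviations), TUBA1B and STMN1 0.78 (0.66), and TUBA1B and TUBB 0.75 (0.54). TUBA1A went the other way: with TUBB4B it had r = -0.67, and -0.85 on deviations. TUBA1A and TUBB2A had r = 0.58 (0.51 on deviations), and TUBA1A and TUBA1B had r = 0.11 on deviations.

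**Figure D4:**
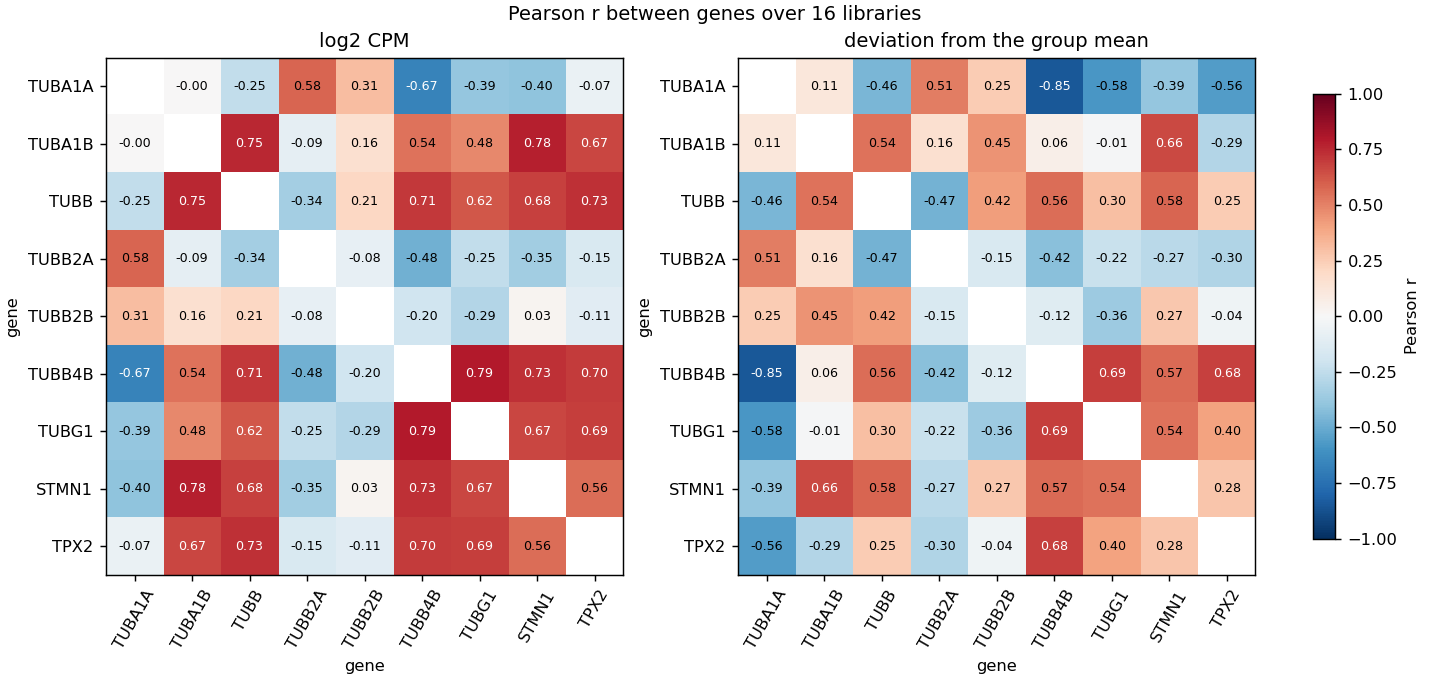
Pearson r between the 8 tested members and TPX2 over 16 libraries, on log2 CPM (left) and on deviations from the group means (right), from -1 (blue) to 1 (red). TUBA1A and TUBB4B have the lowest value in both panels, -0.67 and -0.85.

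The opposite course of TUBA1A and TUBB4B followed the replicate number. Replicate 3 had the lowest TUBA1A and the highest TUBB4B in each of the 4 groups. On average over groups it deviated from the group mean by -0.19 for TUBA1A and by 0.25 for TUBB4B on the log2 scale. The labels give no meaning to a replicate number beyond the replicate itself. TPX2 in replicate 3 was the highest of its group in si45 (121 CPM), si46 (93.5) and si47 (76.1) and the lowest in siNTC (296), and its part in the pattern was not tested. With TPX2, TUBB4B had r = 0.70 and 0.68 on deviations, while TUBA1B had 0.67 and -0.29.

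**Figure D5:**
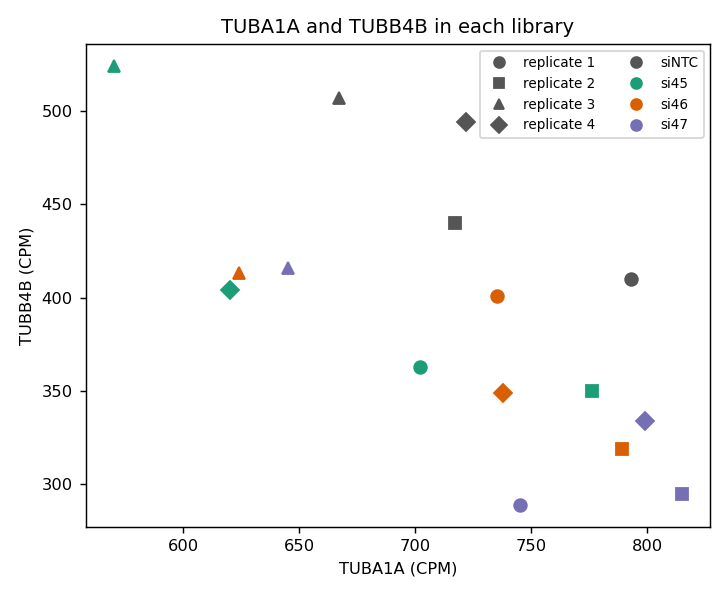
TUBA1A against TUBB4B in each of the 16 libraries, both in CPM, coloured by siRNA group and with a symbol for the replicate number; the axes do not start at 0. Within each group the triangle of replicate 3 is farthest to the left and highest.

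For each tested member the gene with the most similar course over the 16 libraries was sought among 9671 other genes with a mean count of at least 50. TUBB4B was closest to HMGXB4 (r = 0.96), TUBG1 to SEPTIN11 (r = 0.94), TUBB to CTDNEP1 (r = 0.92), and STMN1 to FASN, the fatty acid synthase (r = 0.88). TUBA1B was closest to KPNA2 (r = 0.88), an importin alpha. For TUBA1A it was ZFHX2 (r = 0.85), for TUBB2A LRRC49 (r = 0.84) and for TUBB2B TCF12 (r = 0.83). On deviations from the group means these values were 0.81 to 0.93. Each r is the largest of 9671 values, so it serves only to name a neighbour.

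Relatives of the members were examined by gene lists. Of 15 other tubulin genes 5 were tested, and edgeR called none of them in any comparison with siNTC, with 0 under an unadjusted p of 0.05. Their median log2 fold change under si47 was -0.20. TUBB6, named after its values were seen, was the most abundant of them in siNTC at 262 ± 28.4 CPM and had a mean contrast of -0.15 (edgeR adjusted p = 0.649). Of the other stathmins, all 3 were tested and none was called (0 under an unadjusted p of 0.05), with a median of 0.39 under si47. In the mean contrast of edgeR, STMN2, a neuronal stathmin, had 0.31 (adjusted p = 0.389), STMN3 -0.12 (adjusted p = 0.43) and STMN4 0.53 (adjusted p = 0.384). Of 49 listed pseudogenes 3 were tested and none was called by edgeR, with 1 under an unadjusted p of 0.05 in each comparison and a median of 0.70 under si47, where STMN1P1 and TUBBP5 had at most 1.22 CPM on average in siNTC. TUBBP1, a TUBB pseudogene named after its values were seen, had 248 ± 49.3 CPM in siNTC and 154 to 161 CPM on average under the siRNAs (-0.66 in the mean contrast, SE 0.21, edgeR adjusted p = 0.0826). Its transcript shares 213 windows of 75 bases with TUBB, although none in the last 500 bases of TUBB.

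Partners of TUBG1 in microtubule nucleation were also counted. In the gamma-tubulin ring complex list, 2 of 10 tested genes were called lower under si47 and 0 higher, against 4.83% and 4.91% of all genes tested. These were NEDD1, which brings the ring complex to spindles (-0.39, SE 0.116, edgeR adjusted p = 0.028), and CDK5RAP2, which anchors it at centrosomes (-0.33, SE 0.0845, adjusted p = 0.00987). The list's median was -0.18 under si47. Augmin, the complex that loads gamma-tubulin onto existing spindle microtubules, had 3 of 8 genes called lower under si47 and 1 under si46, where 4.83% and 1.25% of all genes were. HAUS8 fell by 0.69 under si47 (SE 0.142, edgeR adjusted p = 0.00125) and by 0.52 under si46 (adjusted p = 0.0314). HAUS6 and HAUS2 fell by 0.59 and 0.46 under si47 (adjusted p = 0.000372 and 0.00833, edgeR), and the list's median there was -0.47. In the mean contrast CDK5RAP2 (-0.23, adjusted p = 0.0308), HAUS6 (-0.37, adjusted p = 0.00674) and HAUS8 (-0.44, adjusted p = 0.0113) were called by edgeR, where 3.53% of all genes were called lower. Under si45 neither list had a called gene (1 each under an unadjusted p of 0.05), and their medians were 0.01 and -0.24.

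Genes that fold, modify or organise tubulin were counted in the same way. Of 21 tested genes of the folding pathway, TBCD was called lower (-0.43, edgeR adjusted p = 0.0315) and TBCC higher (0.53, adjusted p = 0.0209) under si47. Both are cofactors that assemble the alpha-beta dimer, and 1 call of 21 in each direction is near the share over all genes (4.83% lower, 4.91% higher). The list's median was 0.11. Of 17 tested tubulin-modifying enzymes none was called against siNTC, with 7 under an unadjusted p of 0.05 for si47, where 23.3% of all genes were, and a median of 0.03. Of 14 plus-end and severing genes CKAP5, a microtubule polymerase, was the one called, at -0.38 under si47 (SE 0.0831, edgeR adjusted p = 0.00235) and -0.30 in the mean contrast (adjusted p = 0.0036). That count of 1 of 14 is near the share of all genes called lower, 4.83% under si47 and 3.53% in the mean contrast. The list's median was -0.07 under si47.

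Promoters of the members were read from RefSeq on GRCh38.p14, as 300 bases per start site, 250 before and 50 after. All 10 members were found, with 16 start sites. 5 motifs were searched on both strands: CCAAT, the element bound by NF-Y; TTTGAA and TTCGAA, spellings of the cell cycle homology region; and TTTCCCGC and TTTGGCGC, spellings of E2F sites. CCAAT was in 10 of the 16 promoters (62.5%), and in 34.6% of all 35116 promoters. It was found for 8 members, all but TUBA1B and TUBB2A. TTTGGCGC was in 2 of the 16, for TUBG1 and STMN1, and in 0.652% of all promoters. TTTGAA was found for TUBA1C and TUBB4B, in 4 of the 16 promoters (25.0%) and in 15.2% of all promoters. TTCGAA was found for TUBB3 (1.45% of all promoters) and TTTCCCGC for STMN1 (1.63%). A member with several start sites has more than 1 chance to hold a motif, and a match describes letters only. Overlapping TUBA1C promoters hold the same CCAAT site, which is therefore counted more than 1 time among the 10.

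The windows of the called genes, and of STMN1 for its match with TUBG1, are shown as examples of the matches; each runs 5′ to 3′ on the gene's own strand, with the motif in capitals (ATTGG is CCAAT on the other strand).
TUBB: ctcagaggCCAATggacgcct
TUBB4B: gggcaaggCCAATcaaacgag
TUBG1: cgattctcATTGGagcggagg
TUBG1: gctggttgTTTGGCGCctgcgtct
STMN1: tgcctctgTTTGGCGCttttgtgc
STMN1: gctctcggCCAATgcggagcc
The TUBB window is at chr6:30720179-30720199 (plus strand), its motif starting 165 bases before the start site, and the TUBB4B window at chr9:137241176-137241196 (plus), 103 bases before; TUBB4B holds 2 further CCAAT matches. The TUBG1 windows are at chr17:42609608-42609628 and chr17:42609644-42609667 (plus), 67 and 31 bases before the start. Those of STMN1 are at chr1:25906442-25906465 and chr1:25906482-25906502 (minus), 38 and 75 bases before. TUBG1 was called lower under si47 and STMN1 was not, a difference that was not itself tested, and TUBA1B was called lower with none of the 5 motifs in its window.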

How the data were processed

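RNA was measured in 16 libraries of IMR32 cells. The authors deposited raw counts per Ensembl gene, whole numbers that were not normalized; per the submitters' processing notes STAR 2.7.2b, edgeR 3.36.0, limma 3.50.3 and GRCh38 were used. The annotation, strand setting and treatment of shared reads are not given in the sources used here. Symbols came from a gene name table (58434 of 58787 identifiers), positions and transcripts from GENCODE v29.

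For the tests, edgeR 4.0.16 (R 4.3.3) was used: filterByExpr removed genes with low counts (minimum count 10, minimum total 15), TMM gave the scaling factors, and a robust quasi-likelihood fit took the 4 group means over all libraries. p-values were adjusted by Benjamini-Hochberg over 14193 genes per contrast, with a threshold of 0.05, and SE is the log2 fold change divided by the square root of F. Intervals are 95%, from the SE and the normal distribution, and correlations used a prior count of 2. The pipeline was checked on simulated data. Replicates of a group differed by more than sampling noise (chi-square per degree of freedom 4.45 to 10.27). Deviations from group means correlated over 0.1 in all 4 same-numbered pairs of si45 and si47 libraries, with r = 0.120 to 0.242, which held for no other 2 groups. Same-numbered r was positive between the other groups too, from 0.019 (siNTC with si47) to 0.247 (si45 with si46). In siNTC with si45, si45 with si46 and si46 with si47 each library also correlated best with its own number (8 of 8). This pairing comes from the values, not the labels.

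The members, lists and tests were chosen with earlier results of these data known. Named genes were the 10 members, TPX2, up to 3 called genes per list by p in the mean contrast, and the most correlated gene of each member. TTC5 and the stathmins STMN2 to STMN4, outside this rule, were named after their values were seen. TUBGCP genes, which match the symbol pattern of the pseudogene list, were left out of it. As alternatives the fit was repeated with other scaling (RLE, upper quartile), with DESeq2 1.42.0 or limma-voom (limma 3.58.1), unfiltered or with a minimum of 10 counts per library, on the compared groups alone, with a replicate block, and without each library in turn. Plots were made with matplotlib 3.10.9.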

Additional observations from a re-analysis of the deposited data

Results flagged for a closer look

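Of 32 groups of 4 libraries (8 genes by 4 groups), 3 held a library set apart from the other 3 by Dixon's criterion (the gap to the nearest library as a share of the group's range), where chance gives about 1.6. STMN1 in siNTC replicate 4 was 2304 CPM against 1966, 1971 and 2007. STMN1 in si46 replicate 2 was 1675 CPM against 1900, 1900 and 1935. TUBB2A in si45 replicate 3 was 51.7 CPM against 59, 59.3 and 59.3, in the library with the most TPX2 among those transfected against it.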

How the results depend on the processing

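The 4 members called under si47 were also called with RLE or upper-quartile factors, with DESeq2, with limma-voom, without a filter, with a minimum of 10 counts per library and with the replicate block; with only the groups compared TUBB was lost (adjusted p = 0.0684). The mean contrast, which has no separate fit with only the groups compared, kept TUBA1B, TUBB and TUBG1 under the other settings named, and DESeq2, limma-voom, no filter and the block added TUBB4B. Other calls depended on the setting. Under si45 (0 called) no filter gave 1 (TUBB) and the replicate block 2 (TUBB and TUBG1). The calls over all genes rose there from 190 to 356 and 577. Under si46 (0 called) no filter gave 3, only the groups compared 2 and the replicate block 4. The calls over all genes rose there from 482 to 690, 631 and 1073. The block gave 1 for si47 against si45 (TUBB4B), where it called 398 genes in all, against 24 in the main fit. Leaving out 1 library gave 0 to 4 called members under si47 and 0 to 4 in the mean contrast. Values near 0 changed sign: TUBA1A under si46 was 0.002 with a minimum of 10 counts per library. Leaving out 1 library, it ranged from -0.052 to 0.061 under si46 and from -0.063 to 0.021 in the mean contrast. TUBB2A ranged from -0.063 to 0.023 under si46 and from -0.020 to 0.043 in the mean contrast. TUBB2B ranged from -0.182 to 0.016 under si45, -0.085 to 0.116 under si47 and -0.075 to 0.125 in the mean contrast. The causes were not tested. Replicate numbers are shared across groups, and every library of siNTC with si45, of si45 with si46, of si45 with si47 and of si46 with si47 correlated best with its own number (8 of 8 each), against 5 of 8 for siNTC with si46 and with si47. With a mean count of at least 200 the neighbour of TUBB2A was NIFK (r = 0.82) and the others were the same. Depth limits TUBA1C and TUBB3, at most 5 and 6 counts per library.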
